A study of Arabidopsis thaliana with 9 samples.

Results

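Histone transcripts were followed in root tips of Arabidopsis thaliana, 3 mm long and 5 days old, on 1-colour Affymetrix arrays. The list held 43 loci for the linker histone H1, the core histones H2A, H2B, H3 and H4, and the centromeric histone CENH3. The array's probe table mapped 25 probe sets to 28 of these loci, out of 22746 probe sets tested and 14265 loci that the table names. A probe set was taken as a member where every locus it names is on the list, and no probe set named a listed locus together with another one. The remaining 15 loci, which are all 13 H2A loci and the H2B loci AT3G45980 and AT3G53650, were not analysed here. The H2A variants, among them H2A.Z, H2A.X and H2A.W, therefore have no values below.

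There were 9 arrays, with 3 for each of 3 genotypes, and all plants were of the Col-0 accession and received no treatment. The ERF115 overexpressor carries the open reading frame of ERF115 behind the p35S promoter, which is active in most cell types. The erf115 mutant carries the insertion SALK_021981, and the wild type is Col-0 without a transgene or insertion. ERF115 belongs to the ethylene response factors, and is known in Arabidopsis roots for its part in quiescent centre cell division. The ERF115 transcript was not analysed here, so it gives no check of the genotypes. Neither the number of independent lines nor whether replicates were grown apart is stated in the labels, and the p-values below cover just the variation seen among these arrays, part of which may be technical.

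Histones package DNA into nucleosomes, each of which holds H2A, H2B, H3 and H4. The replication-linked forms, which include H4, H3.1 and most H2B, are made mainly in S phase, when new DNA has to be packaged, and their transcripts therefore mark replicating cells. The replacement form H3.3 is made throughout the cell cycle and also in cells that no longer divide. CENH3 takes the place of H3 at centromeres, and H1 binds the DNA between nucleosomes. In plants histone messages, including the replication-linked ones, are polyadenylated, so they are captured by labelling from the 3' end as used here.

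The probe sets differ in how far they separate genes. The 8 H2B probe sets name 1 locus each, as do the probe sets of CENH3 (AT1G01370, also HTR12), of the linker histones AT1G06760 and AT2G30620, and of HIS1-3 (AT2G18050). The 5 probe sets of H4 all name the same 8 loci, AT1G07660, AT1G07820, AT2G28740, AT3G45930, AT3G46320, AT3G53730, AT5G59690 and AT5G59970. The 5 probe sets of H3.1 all name AT1G09200, AT3G27360, AT5G10390, AT5G10400 and AT5G65360. The 3 probe sets of H3.3 all name AT4G40030, AT4G40040 and AT5G10980. These 13 probe sets are called by their array name below, since the table does not say which locus each of them reads, and members of a class that name the same loci are not independent of each other. The suffix _s_at, which marks probes shared by several transcripts, is carried by 3 of the H4 probe sets.

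Values are RMA levels on the log2 scale, as deposited. They are not compared between probe sets, because each probe set has its own sensitivity. Array medians lay between 5.045 and 5.13, and correlations between arrays of a genotype were 0.9955 to 0.9981 across probe sets, which are not independent replicates. Of the members, 23 had a mean of at least 5 over the 9 arrays, and 2, AT5G02570 and HIS1-3, lay below it. In the cutting of a whole root tip, fewer cells of a type and less RNA per cell cannot be told apart.

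The first question was whether histone transcripts differed in the ERF115 overexpressor from wild type. No member passed the threshold of 0.05 for the adjusted p. Levels of H4, H3.1 and H2B nevertheless lay below wild type for 16 of 18 probe sets, with a median log2 fold change of -0.15, or -10.0% on the linear scale. The 3 probe sets of the replacement histone H3.3 stood at -0.0061, -0.0061 and -0.0005. Over all 22746 probe sets the median was -0.02, with 57.8% of them below 0, and over the 3144 probe sets with a mean of at least 8, where 14 of the 18 lie, it was -0.02. The smallest adjusted p among the members was 0.127 (limma, Benjamini-Hochberg adjustment over all probe sets), against a background in which 3.75% of all probe sets were called higher and 1.70% lower. At an unadjusted p under 0.05, 6 members were lower and 0 higher, where 8.92% of all probe sets were lower and 9.32% higher. The values of the overexpressor and wild-type arrays did not overlap for 4 members, all lower, beside 10.6% of all probe sets lower without overlap and 9.26% higher. On the same arrays the root hair genes EXPA7 and EXPA18 were higher in the overexpressor than in wild type, by 0.81 and 0.85 (adjusted p = 0.000438 and 0.0137, limma), and their part in the histone values was not tested.

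**Figure D1:**
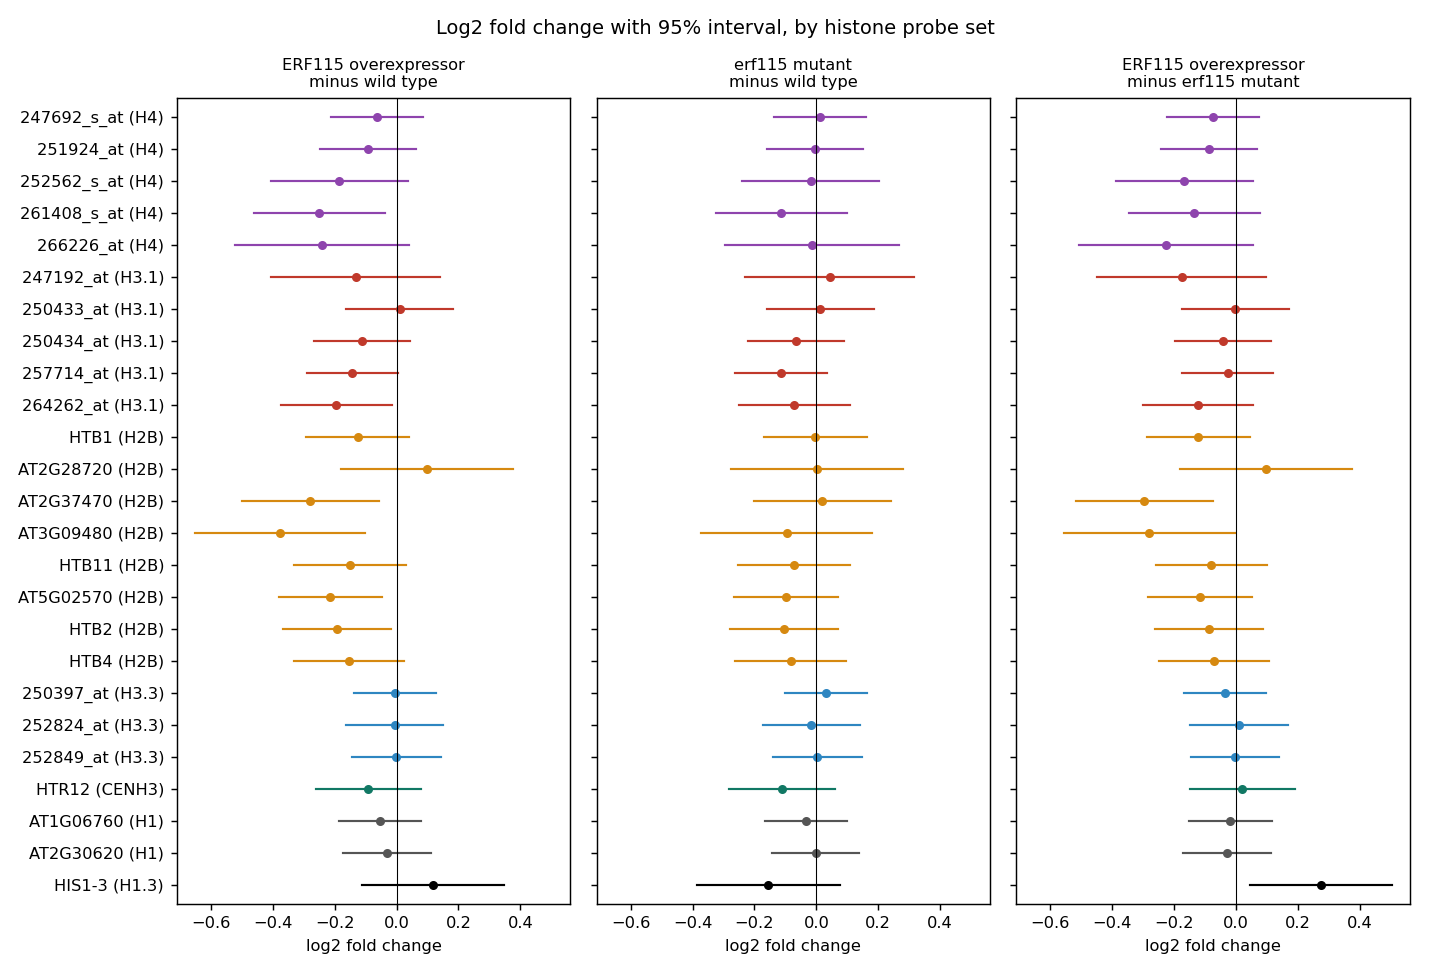
Log2 fold changes (x axis) of the 25 histone probe sets (rows, with their class in brackets) in 3 comparisons, one panel each; points are estimates, bars 95% intervals that are not adjusted for the number of probe sets, and colours mark the class. For the overexpressor minus wild type, 16 of the 18 points of H4, H3.1 and H2B lie left of 0 and the 3 points of H3.3 lie at 0 to the second decimal or at -0.01.

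Among the H4 probe sets, 261408_s_at had the smallest p against wild type. It stood at 9.09, 9.43 and 9.38 in the overexpressor, 9.48, 9.43 and 9.40 in the mutant, and 9.65, 9.57 and 9.43 in wild type. The 3 genotypes meet at 9.43, and overexpressor replicate 1 lies below all other arrays. The log2 fold change against wild type was -0.25 (SE 0.10, 95% interval -0.46 to -0.04, adjusted p = 0.193).

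All 4 other H4 probe sets stood below wild type as well. 266226_at read 8.45, 8.49 and 8.69 in the overexpressor and 8.87, 8.93 and 8.54 in wild type, a log2 fold change of -0.24 (SE 0.13). 252562_s_at read 8.97, 9.30 and 9.17 in the overexpressor and 9.48, 9.35 and 9.17 in wild type, a log2 fold change of -0.19 (SE 0.10). For both, wild-type replicate 3 was the lowest array of its genotype and lay within the range of the overexpressor. 251924_at is the 1 H4 probe set whose groups did not overlap, at 10.20, 10.30 and 10.34 in the overexpressor and 10.37, 10.39 and 10.35 in wild type (-0.09, SE 0.07). 247692_s_at, at 11.46, 11.50 and 11.49 in the overexpressor and 11.65, 11.49 and 11.51 in wild type, differed by -0.06 (SE 0.07). Overexpressor replicate 1 was the lowest array of its genotype for 5 of 5 H4 probe sets.

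H3.1 is the form of H3 that chromatin assembly factor 1 deposits behind the replication fork. Its probe set with the smallest p was 264262_at, at 9.48, 9.74 and 9.67 in the overexpressor, 9.79, 9.73 and 9.74 in the mutant, and 9.87, 9.73 and 9.88 in wild type. Wild-type replicate 2 lies inside the range of the overexpressor, so the groups overlap. The log2 fold change of the overexpressor against wild type was -0.19 (SE 0.08, 95% interval -0.37 to -0.02, adjusted p = 0.233).

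The 5 H3.1 probe sets differed among themselves although they name the same loci. 247192_at read 10.15, 10.68 and 10.61 in the overexpressor and 10.69, 10.52 and 10.62 in wild type, so that its -0.13 (SE 0.12) comes with 1 low array. 257714_at read 8.67, 8.62 and 8.62 in the overexpressor and 8.82, 8.85 and 8.67 in wild type (-0.14, SE 0.07), and its 3 overexpressor arrays lie close together. 250434_at differed by -0.11 (SE 0.07) and 250433_at by 0.01 (SE 0.08), with an interval of -0.16 to 0.18. Across the 9 arrays the 10 pairs of H3.1 probe sets had correlations between -0.29 and 0.84, with a median of 0.30, whereas the 10 pairs of H4 probe sets had 0.40 to 0.93, with a median of 0.66. These correlations describe the arrays, which the probe sets share, and were not tested.

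H2B, the partner of H2A in the nucleosome, was read by probe sets that name 1 gene each. AT3G09480 had the smallest p of all members and stood at 5.82, 6.05 and 6.19 in the overexpressor, 6.36, 6.24 and 6.30 in the mutant, and 6.64, 6.15 and 6.41 in wild type. The overexpressor arrays lie below all others except wild-type replicate 2, which is lower than overexpressor replicate 3. The log2 fold change against wild type was -0.38 (SE 0.12, 95% interval -0.65 to -0.10), or -23.0% on the linear scale, with an adjusted p of 0.127 in limma. Without wild-type replicate 2 it was -0.50 with an adjusted p of 0.0483, and this was the 1 call of any member under any alternative tried.

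AT2G37470 stood at 7.38, 7.67 and 7.63 in the overexpressor, 7.88, 7.95 and 7.74 in the mutant, and 7.99, 7.74 and 7.79 in wild type. All overexpressor arrays lie below all other arrays. The log2 fold change was -0.28 against wild type (SE 0.10, adjusted p = 0.162) and -0.30 against the mutant (SE 0.10, adjusted p = 0.166). AT5G02570, low on the scale of these arrays, read 3.264, 3.170 and 3.030 in the overexpressor and 3.458, 3.302 and 3.344 in wild type, without overlap (-0.21, SE 0.08, adjusted p = 0.157).

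The 4 H2B genes with a symbol, HTB1 (AT1G07790), HTB2 (AT5G22880), HTB4 (AT5G59910) and HTB11 (AT3G46030), lay between -0.19 and -0.13 against wild type. HTB2 stood at 8.83, 8.66 and 8.68 in the overexpressor, against 9.03, 8.92 and 8.78 in wild type (-0.19, SE 0.08, adjusted p = 0.229). HTB4 stood at 10.85, 10.61 and 10.73 in the overexpressor, against 10.96, 10.76 and 10.93 in wild type (-0.15, SE 0.08). For both genes overexpressor replicate 1 was the highest array of its genotype, the reverse of its place in H4. HTB1 read 8.94, 8.94 and 8.86 in the overexpressor and 9.16, 8.99 and 8.97 in wild type, without overlap (-0.13, SE 0.08). HTB11 read 9.17, 9.37 and 9.45 in the overexpressor and 9.47, 9.53 and 9.45 in wild type (-0.15, SE 0.08). AT2G28720 was the 1 H2B gene above wild type, at 5.23, 5.64 and 5.76 in the overexpressor and 5.53, 5.34 and 5.47 in wild type (0.10, SE 0.13), with arrays on both sides of wild type.

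**Figure D2:**
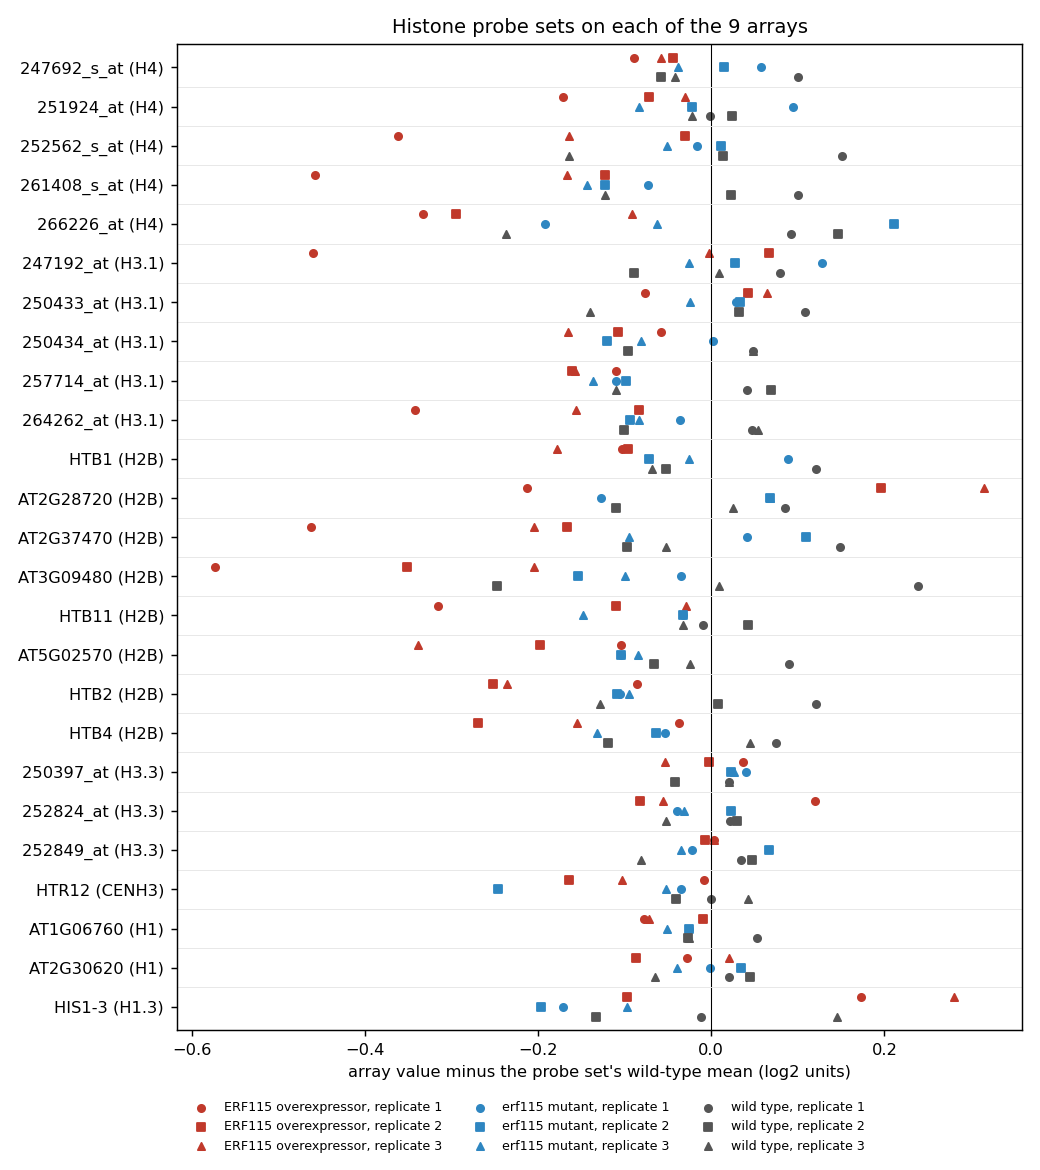
Each of the 9 arrays for the 25 histone probe sets (rows), as the array value minus the mean of the 3 wild-type arrays of that probe set (x axis, log2 units); colour marks the genotype and shape the replicate number. Overexpressor replicate 1 lies farthest left for all 5 H4 probe sets, and the 3 genotypes overlap for the H3.3 probe set 252824_at.

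The replacement histone H3.3, which is built into chromatin outside replication, stood near wild type. The H3.3 probe set with the smallest p over the comparisons was 250397_at, at 11.38, 11.34 and 11.29 in the overexpressor, 11.38, 11.36 and 11.37 in the mutant, and 11.36, 11.30 and 11.36 in wild type. 252824_at read 11.01, 10.81 and 10.84 in the overexpressor, against 10.92, 10.92 and 10.84 in wild type. 252849_at read 10.67, 10.66 and 10.67 in the overexpressor, against 10.70, 10.71 and 10.59 in wild type. The 95% intervals of the 3 probe sets against wild type together reach from -0.16 to 0.15, or from -10.7% to 11.1% on the linear scale. For the 18 probe sets of H4, H3.1 and H2B they reach from -0.65 to 0.38, or from -36.4% to 29.9%. These outer limits are those of AT3G09480 and AT2G28720. Such a range can only widen with the number of probe sets and is not an interval for the class. The median SE was 0.08 over the 18 probe sets and 0.06 over those of H3.3.

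CENH3 stood at 5.54, 5.38 and 5.44 in the overexpressor, 5.51, 5.30 and 5.49 in the mutant, and 5.54, 5.50 and 5.59 in wild type. Its log2 fold changes against wild type were -0.09 in the overexpressor and -0.11 in the mutant (SE 0.08 for each), and overexpressor replicate 1 and mutant replicate 1 lie within the wild-type range. The linker histones AT1G06760 and AT2G30620, which code for the main H1 forms, differed between the overexpressor and wild type by -0.05 (SE 0.06) and -0.03 (SE 0.06). AT1G06760 read 9.433, 9.502 and 9.440 in the overexpressor, 9.486, 9.486 and 9.461 in the mutant, and 9.564, 9.484 and 9.486 in wild type, and the 3 genotypes overlap.

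HIS1-3 codes for the short H1 variant known in Arabidopsis to be induced by drought and abscisic acid. It read 2.65, 2.38 and 2.75 in the overexpressor, 2.30, 2.28 and 2.38 in the mutant, and 2.46, 2.34 and 2.62 in wild type, low on the scale on all arrays, and the genotypes overlap. Its log2 fold change was 0.12 in the overexpressor against wild type (SE 0.10, adjusted p = 0.598) and 0.27 in the overexpressor against the mutant (SE 0.10, adjusted p = 0.22). It is the 1 member with an unadjusted p under 0.05 in the direction of higher values in any comparison.

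To see how far single arrays set these values, the members of a class were averaged on each array after the wild-type mean of each probe set was taken off. The mean over the 18 probe sets of H4, H3.1 and H2B was -0.24, -0.11 and -0.11 on the overexpressor arrays, -0.02, -0.03 and -0.07 on the mutant arrays, and 0.09, -0.04 and -0.05 on the wild-type arrays. The overexpressor arrays lie below all others, with replicate 1 farther from its own genotype's other arrays than those are from the lowest mutant array. Wild-type replicate 1 was the highest wild-type array for 13 of the 18 probe sets and the lowest for 0, and overexpressor replicate 1 was the lowest of its genotype for 12. The H3.3 mean was 0.05, -0.03 and -0.04 in the overexpressor, -0.01, 0.04 and -0.01 in the mutant, and 0.03, 0.01 and -0.04 in wild type. H3.3 was thus highest on the overexpressor array on which H4, H3.1 and H2B were lowest.

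**Figure D3:**
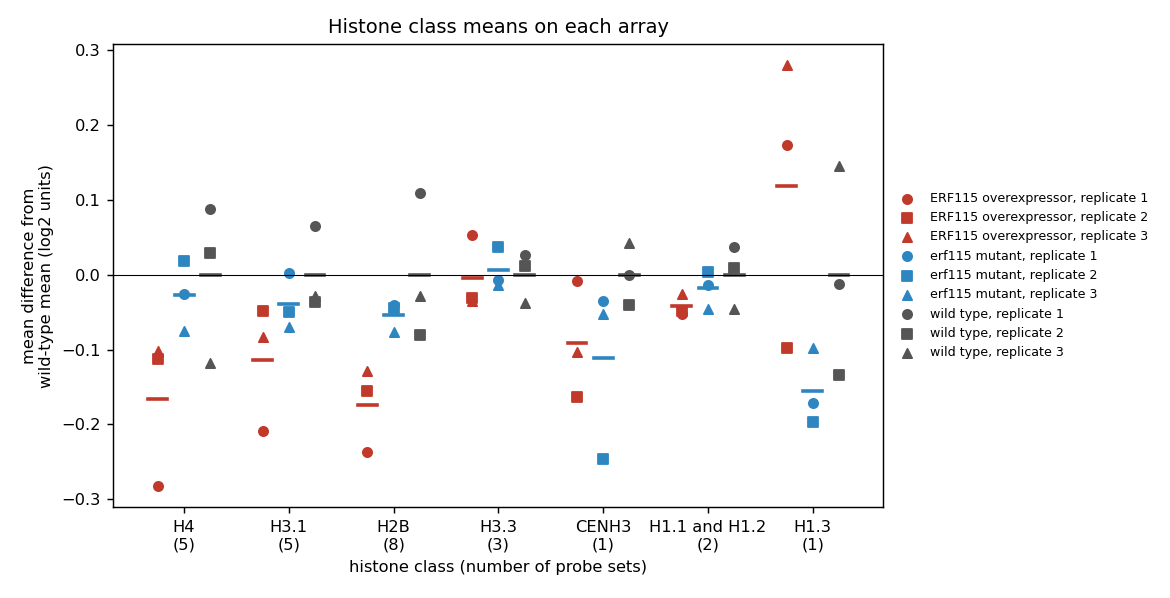
Mean over the probe sets of a histone class (x axis, with their number) of the array value minus the wild-type mean (y axis, log2 units); each point is 1 array, shape marks the replicate number and bars are means of 3 arrays. In H4, H3.1 and H2B the lowest point is overexpressor replicate 1 and the highest is wild-type replicate 1.

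The difference between the mean of the 18 probe sets and the mean of H3.3 on the same array cancels a shift that all histones share on that array. It was -0.30, -0.08 and -0.07 in the overexpressor, -0.02, -0.07 and -0.06 in the mutant, and 0.07, -0.05 and -0.02 in wild type. Overexpressor replicates 2 and 3 lie close to the lower mutant arrays here, and replicate 1 lies apart. No test was made of this difference, since the classes were formed with these data known.

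The count and the medians were recomputed with arrays left out. Without wild-type replicate 1, 0 members had an unadjusted p under 0.05 in the overexpressor against wild type, in place of 6, and the median of the 18 probe sets was -0.12. Without overexpressor replicate 1, 3 members were lower and 1 was higher at that level, and the median was -0.14. Without replicate 1 of every genotype, a choice made after the data were seen, 1 was lower and 1 higher and the median was -0.10, while the H4 median was -0.05 in place of -0.19. Calls over all probe sets fell in these fits too. At an adjusted p under 0.05 (limma), 854 were higher and 387 lower with all arrays. They numbered 522 and 270 without wild-type replicate 1, and 796 and 377 without overexpressor replicate 1. Without replicate 1 of every genotype they numbered 314 and 134. The share of all probe sets at the unadjusted level was not taken here, so the falls in member counts cannot be called particular to histones. With 1 array left out at a time the median of the 18 lay between -0.17 and -0.12. The H4 median was -0.0974 without overexpressor replicate 1 and -0.11 without wild-type replicate 1.

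**Figure D4:**
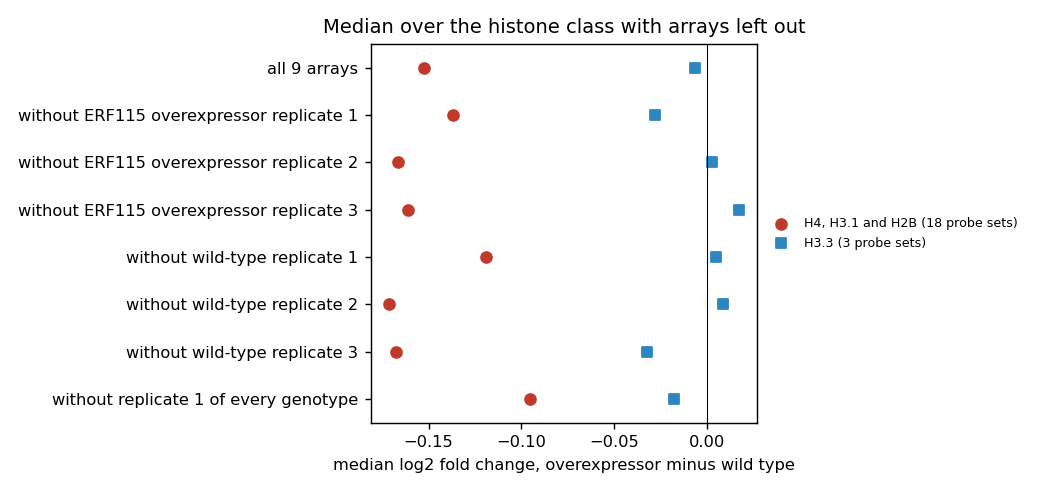
Median log2 fold change of the overexpressor against wild type (x axis) over the 18 probe sets of H4, H3.1 and H2B (circles) and the 3 of H3.3 (squares), with all 9 arrays and with arrays left out (rows). The median of the 18 is -0.15 with all arrays and closest to 0, at -0.10, without replicate 1 of every genotype.

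The second question was whether loss of ERF115 function changed histone transcripts. In the erf115 mutant against wild type no member passed, with a smallest adjusted p of 0.9996 (limma), and 0.00440% of all probe sets were called higher and 0.00879% lower. At an unadjusted p under 0.05 there were 0 members in either direction, beside 2.39% of all probe sets higher and 2.15% lower. The arrays did not overlap for 1 member in each direction, the H3.3 probe set 250397_at (higher, 0.03, SE 0.06) and AT5G02570 (lower, -0.10, SE 0.08), beside 4.19% and 3.96% of all probe sets.

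The log2 fold changes of the members in the mutant lay between -0.15 for HIS1-3 and 0.04 for the H3.1 probe set 247192_at. Their 95% intervals together reach from -0.38 to 0.32. For H4, H3.1 and H2B the median was -0.04 with 13 of 18 below 0, and it turned to 0.01 without wild-type replicate 1. The all-probe median was 0.0021. HTB2 (-0.10, SE 0.08), HTB4 (-0.08, SE 0.08) and HTB11 (-0.07, SE 0.08) stood below wild type, while HTB1 (-0.0029, SE 0.08), AT2G28720 (0.0028, SE 0.13) and AT2G37470 (0.02, SE 0.10) stood near 0. On the mutant arrays HTB2 read 8.81, 8.80 and 8.82, the narrowest spread of any H2B gene there. The mutant arrays of the H4 probe set 266226_at, by contrast, read 8.59, 8.99 and 8.72, with a spread (SD 0.206, n = 3) close to that of wild type (SD 0.207, n = 3).

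The third comparison set the overexpressor against the mutant, and it shares its arrays with the other comparisons. No member passed, with a smallest adjusted p of 0.166 for AT2G37470 (limma), and 2.65% of all probe sets were called higher and 1.03% lower. At an unadjusted p under 0.05, 2 members were lower, AT2G37470 and AT3G09480 (-0.28, SE 0.12), and 1 was higher, HIS1-3, beside 7.73% and 7.90% of all probe sets. The arrays did not overlap for 4 members, all lower, beside 10.6% of all probe sets lower and 9.58% higher. These were AT2G37470, AT3G09480, HTB1 (-0.12, SE 0.08) and the H4 probe set 247692_s_at (-0.07, SE 0.07).

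Of the 18 probe sets of H4, H3.1 and H2B, 17 stood below the mutant, beside 57.7% of all probe sets, AT2G28720 being the exception at 0.10 (SE 0.13), and their median was -0.10. The median was -0.14 in H4, -0.04 in H3.1 and -0.10 in H2B, beside -0.02 over all probe sets. With 1 array left out it lay between -0.20 and -0.06 in H4, where -0.06 came without overexpressor replicate 1, between -0.07 (without mutant replicate 2) and -0.03 (without mutant replicate 1) in H3.1, and between -0.14 and -0.08 in H2B. The 3 H3.3 probe sets stood at -0.04, 0.0099 and -0.0037, and CENH3 at 0.02 (SE 0.08). The median of the 18 was -0.07 without overexpressor replicate 1 and -0.04 without replicate 1 of every genotype. Over all probe sets the median was -0.03 and -0.02 in these fits.

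**Figure D5:**
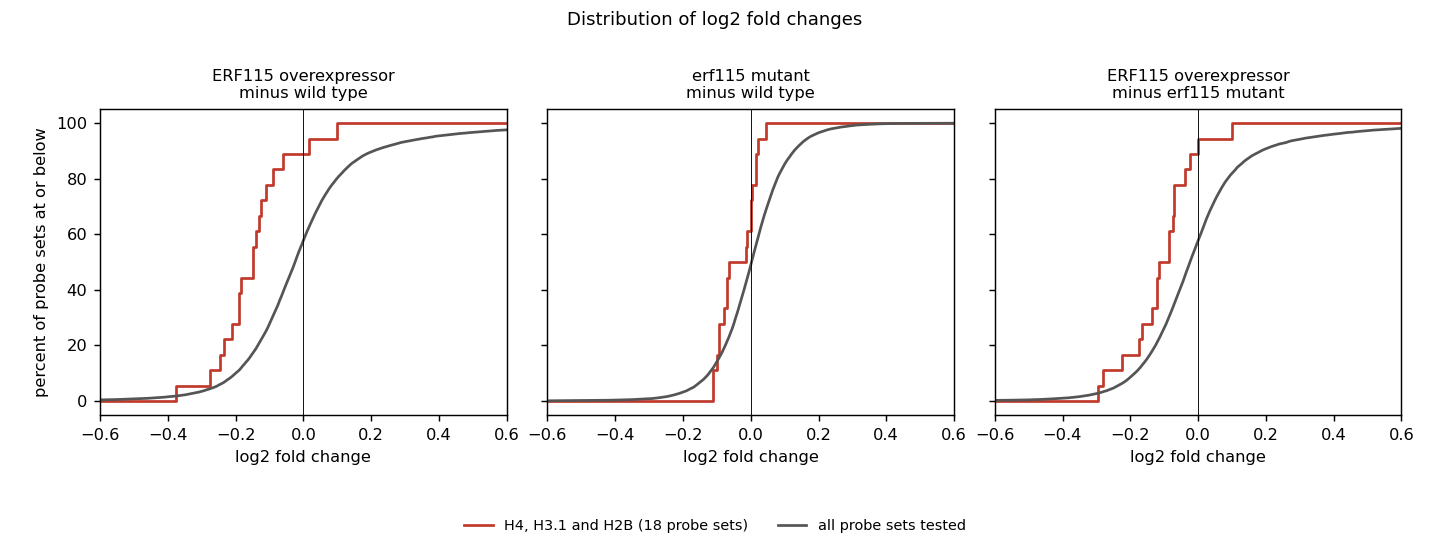
Percent of probe sets (y axis) with a log2 fold change at or below the value on the x axis, for the 18 probe sets of H4, H3.1 and H2B (red) and all 22746 probe sets tested (grey), 1 panel per comparison. At 0 the red line stands at 88.9% and the grey at 57.8% for the overexpressor against wild type, at 72.2% and 48.9% for the mutant against wild type, and at 94.4% and 57.7% for the overexpressor against the mutant.

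Other genes of the cell cycle were taken from lists. Of 29 DNA replication genes, 2 were read here on a probe set of their own. AT1G07270, AT5G63960 and AT5G26680 of this list have no symbol in the gene table and were not looked up. PRL, which codes for the MCM7 subunit of the replicative helicase, differed between the overexpressor and wild type by -0.06 (SE 0.07), and ICU2, the catalytic subunit of DNA polymerase alpha, by 0.04 (SE 0.10). Of 12 histone chaperone genes 2 could be read, SGA2 and ASF1B, the chaperones of H3 and H4, at -0.07 (SE 0.08) and -0.02 (SE 0.07). ASF1B read 7.97, 7.86 and 7.96 in the overexpressor and 7.90, 7.94 and 8.01 in wild type, with overlap. None of these 4 genes passed in any comparison, nor did the 3 genes read here of 9 listed for G2 and mitosis, all Aurora kinases. AUR1 was at -0.15 (SE 0.07, adjusted p = 0.286) in the overexpressor against wild type, and its arrays read 7.39, 7.29 and 7.30 in the overexpressor and 7.45, 7.51 and 7.47 in wild type, without overlap. AUR2 was at 0.06 (SE 0.08) and AUR3 at 0.07 (SE 0.10) in the same comparison. In the overexpressor against the mutant, AUR1 was at -0.22 (SE 0.07, adjusted p = 0.147, limma). AUR2 was at -0.0034 (SE 0.08) and AUR3 at 0.02 (SE 0.10) there. No gene of the list of 6 E2F and RBR regulators was read here.

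Markers of cell types were read beside the histones. BBM, of the root meristem and the 1 of 6 such markers read here, differed between the overexpressor and wild type by -0.30 (SE 0.14, adjusted p = 0.277), at 4.95, 4.67 and 5.08 in the overexpressor and 5.29, 5.43 and 4.89 in wild type. Of 3 markers of root hairs and elongating epidermis, 2 were read and both rose in the overexpressor against wild type, EXPA7 by 0.81 (SE 0.08, adjusted p = 0.000438) and EXPA18 by 0.85 (SE 0.17, adjusted p = 0.0137). EXPA7 read 8.85, 9.10 and 8.85 in the overexpressor and 8.02, 8.19 and 8.17 in wild type. EXPA18 read 8.82, 8.89 and 8.66 in the overexpressor and 7.66, 7.76 and 8.42 in wild type. Overexpressor and wild type do not overlap for either gene, on the same arrays on which most H4, H3.1 and H2B values lie lower. Against the mutant the overexpressor was higher too, by 0.68 for EXPA7 (adjusted p = 0.00185) and 0.84 for EXPA18 (adjusted p = 0.0192). RCA, a gene of green tissue and the 1 of 3 read here, was at 0.15 (SE 0.11) in the overexpressor against wild type and read 4.46, 4.47 and 4.57 in the overexpressor and 4.22, 4.36 and 4.47 in wild type. In the mutant RCA read 4.40, 4.82 and 4.64, a log2 fold change of 0.27 against wild type (SE 0.11, adjusted p = 0.9996, limma).

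Control probe sets at the 3' and 5' ends of a transcript show how intact the labelled RNA was, and these arrays carry 2 sets of them for actin, GAPDH and ubiquitin. In the set named Athal, the 3' minus 5' difference of actin was 4.34 ± 0.18 in the overexpressor, 4.43 ± 0.10 in the mutant and 4.32 ± 0.14 in wild type (log2, SD, n = 3, as for all 6 pairs). That of GAPDH was 0.64 ± 0.16 in the overexpressor, 0.81 ± 0.045 in the mutant and 0.88 ± 0.19 in wild type, and overexpressor replicate 1, the array with the lowest H4 mean, was the lowest of all at 0.47. The overexpressor arrays lie below all mutant arrays for this GAPDH pair and overlap wild type. Overexpressor replicate 1 was also the lowest of all arrays for actin in the Athal set, at 4.18, but not for the remaining pairs. In the set named r2, actin was at 2.04 ± 0.09 in the overexpressor, 2.22 ± 0.03 in the mutant and 2.20 ± 0.11 in wild type, so that the overexpressor arrays lie below all mutant arrays and overlap wild type. GAPDH in the r2 set was at 0.19 ± 0.07 in the overexpressor, 0.20 ± 0.10 in the mutant and 0.20 ± 0.03 in wild type, where overexpressor replicate 1 was the highest of its genotype. Ubiquitin was at 1.33 ± 0.04 in the overexpressor, 1.49 ± 0.13 in the mutant and 1.301 ± 0.09 in wild type in the Athal set. In the r2 set it was at 0.55 ± 0.05 in the overexpressor, 0.52 ± 0.06 in the mutant and 0.48 ± 0.12 in wild type, and the genotypes overlap in both sets. For actin the sets thus differ in which genotype has the lowest mean, though in the Athal set overexpressor and wild type were close, at 4.34 and 4.32. The part of RNA quality in the histone values was not tested.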

How the data were processed

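Transcript levels were measured on 9 arrays, 3 per genotype. Deposited values are log2 levels, which the authors made with RMA in affy 1.36, per the submitters' processing notes. RMA sets arrays to a common distribution, so a change shared by most transcripts is removed. Leaving out 64 control probe sets, 22746 were tested. Gene names come from GEO's annotation of the array and from RefSeq's genes of the assembly TAIR10.1, whose coordinates were not used. The genome build behind the array design is not given in the sources used here.

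With all 9 arrays together, lmFit and eBayes of limma 3.58.1 (R 4.3.3) estimated 1 mean per genotype, with p-values adjusted by the Benjamini-Hochberg method over all 22746 probe sets and a threshold of 0.05. The residual degrees of freedom were 6, and the prior added 4.49. Precision is set by the number of arrays, with a median SE of 0.09 over all probe sets. Intervals are at 95% and not adjusted. The fit was tested on simulated data.

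The members and gene lists were chosen with earlier results of these data known. Every member is named, with values on all arrays at least for the member of each class with the smallest p. Of 67 genes on the other lists, 64 have a symbol in the gene table, and 11 of these had a probe set of their own. Genes without a symbol there were not looked up on the array. List members past the threshold, or that with the smallest p, are named, and the others read here are named in addition, chosen after their values were seen. Alternatives were other normalizations, filters on low values, a trended robust prior, array weights, the 6 arrays compared, a replicate block, arrays left out and other choices of member probe sets. Promoter and protein sequences were not used here.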

Additional observations from a re-analysis of the deposited data

How the results depend on the processing

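Over the alternatives, 125 of 126 counts of called members were 0 as in the fit reported. The count of lower members in the overexpressor against wild type lay between 0 and 1 with 1 array left out, the 1 being AT3G09480 without wild-type replicate 2, where fewer arrays were fitted. Of 546 class medians, 162 could not move by construction (another variance prior, fewer genotypes in the fit, the replicate block in this balanced design, or an array left out of the genotype not compared). Of the other 384, 374 moved by less than the spread between replicates while 16 changed sign. These 384 include further medians that could not move, because every member of the class passed the filter or choice of probe sets. Such medians were not counted apart, so the 374 overstates how many settings were a check. For the overexpressor against wild type, the H1.1 and H1.2 median was -0.078 with median centring, which itself moved the median of all probe sets to -0.06, and without replicate 1 of every genotype (added after the data were seen) the median was -0.052 for H4, -0.0955 for H4, H3.1 and H2B together and -0.0743 for all members. Without replicate 1 of every genotype the median over all probe sets was -0.038. For the mutant against wild type, the median of all members was -0.0696 with array weights and -0.0774 with only the 12 probe sets of 1 gene, and that of H2B lay between -0.0923 and -0.0095 with 1 array left out. For the overexpressor against the mutant, the H3.3 median lay between -0.0532 and 0.0282 with 1 array left out, and without replicate 1 of every genotype it was -0.0524, and that of H4, H3.1 and H2B -0.0406. The causes were not tested. Of 750 values of single members that could move, 663 kept their sign and 87, none of them called, changed it. At an unadjusted p under 0.05, the lower members in the overexpressor against wild type numbered 9 with median centring, a trended robust prior or array weights, and between 0 and 8 with 1 array left out. The share of all probe sets at that level was not taken under these settings, so these counts cannot be called particular to histones. At an adjusted p under 0.05 (limma), the lower probe sets among all tested numbered 387 in the fit reported. They numbered 576 with median centring, 502 with the trended robust prior and 527 with array weights, and between 226 and 377 with 1 array left out. Deviations of arrays with the same number correlated at -0.21 to 0.06 between overexpressor and wild type, 0.10 to 0.14 between mutant and wild type and -0.03 to 0.05 between overexpressor and mutant. Each mutant array nevertheless correlated best with the wild-type array of its own number. Over the members these correlations were -0.0059, 0.52 and 0.39. No overexpressor array matched wild type best by number, and only replicate 1 did so with the mutant. The numbers were not taken to pair the samples in the fit reported. A block on replicate number over all genotypes was among the alternatives, and a pairing of mutant with wild type alone was not tried. With the replicate block the smallest adjusted p of a member was 0.15 for the overexpressor against wild type, with 0 members called in any comparison; the block leaves every fold change as it was by construction, -0.15 for the median of H4, H3.1 and H2B included.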
